A study of Mus musculus with 4 samples.

Results

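The genes described here encode the cytosolic translation initiation and elongation factors, together with the kinases, binding proteins and methyltransferases that share their names. They were taken as every gene whose annotated symbol starts with Eif1, Eif2, Eif3, Eif4, Eif5, Eif6, Eef1 or Eef2, which gave 52 of 12393 named genes. The rule itself uses names only, but this set of genes was chosen with earlier results of these data known. Liver RNA was compared between wild-type mice (labelled 129S1/SvImJ) and PPARα-null mice (labelled 129S4/SvJae) that received normal food or the same food with 0.1% (w/w) of Wy14643, a synthetic agonist of the nuclear receptor PPARα, for 5 days. All mice were male and 12 to 20 weeks old. Each of the 4 groups, a control group and a Wy14643 group of either genotype, was represented by 1 Affymetrix MOE430A array of RNA pooled from 5 mice according to the design text. The sources do not all give the same number of mice per pool. There is thus no replicate error and no p-value for any ratio, and substrain cannot be told apart from genotype.

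Translation of a messenger RNA starts when eIF2 brings the initiator tRNA to the small ribosomal subunit. The large complex eIF3 holds that subunit ready for the messenger RNA, which eIF4E, eIF4G and eIF4A deliver by its 5′ cap, and eIF1, eIF1A and eIF5 govern the choice of the start codon. eIF5B joins the ribosomal subunits, after which eEF1A brings each aminoacyl-tRNA and eEF2 moves the ribosome along. Kinases that phosphorylate eIF2 slow its recycling by the exchange factor eIF2B, and the eIF4E-binding proteins block the cap complex when the kinase mTOR is inactive. Liver is an organ of high protein synthesis, and feeding of PPARα agonists to mice is known to enlarge it.

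The promoters of the eIF3 subunit genes that differed most between the genotypes on Wy14643 (Eif3m, Eif3l and Eif3d) are printed first, with that of Eif3f, a subunit gene that lay between the thresholds in every comparison. The 4 were picked after their values were seen. Each sequence is the 250 bases before the annotated RNA start in RefSeq (build GRCm38.p6), 5′ to 3′ on the strand of the gene. Capitals mark matches on either strand to CCGGAAG, which ETS factors bind, to CACGTG, the E-box, to CCAAT, known as the CCAAT box, to TATAAA, the TATA box, or to AGGTCA, the element whose direct repeat spaced by 1 base is bound by PPARα with RXR.
Eif3m, chr2:105017028-105017277, minus strand: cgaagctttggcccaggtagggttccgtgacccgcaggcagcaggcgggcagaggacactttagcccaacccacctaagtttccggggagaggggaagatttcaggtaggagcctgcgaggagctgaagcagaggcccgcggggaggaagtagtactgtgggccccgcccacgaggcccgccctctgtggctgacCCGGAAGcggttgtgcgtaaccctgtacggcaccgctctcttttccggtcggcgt
Eif3l, chr15:79074973-79075222, plus strand: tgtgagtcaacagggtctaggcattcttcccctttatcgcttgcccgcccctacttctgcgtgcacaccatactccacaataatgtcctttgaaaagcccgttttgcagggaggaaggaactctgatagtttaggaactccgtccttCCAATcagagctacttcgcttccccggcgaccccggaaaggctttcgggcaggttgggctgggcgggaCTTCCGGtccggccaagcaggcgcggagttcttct
Eif3d, chr15:77970825-77971074, minus strand: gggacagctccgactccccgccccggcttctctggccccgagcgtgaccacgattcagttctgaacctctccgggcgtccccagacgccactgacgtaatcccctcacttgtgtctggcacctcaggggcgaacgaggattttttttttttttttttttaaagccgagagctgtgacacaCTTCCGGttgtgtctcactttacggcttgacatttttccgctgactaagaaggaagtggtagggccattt
Eif3f, chr7:108934165-108934414, plus strand: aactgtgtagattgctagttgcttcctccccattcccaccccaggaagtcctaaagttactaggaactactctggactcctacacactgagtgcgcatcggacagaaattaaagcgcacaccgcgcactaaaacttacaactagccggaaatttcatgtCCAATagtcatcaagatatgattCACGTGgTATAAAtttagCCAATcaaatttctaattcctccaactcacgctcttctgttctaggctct

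Eif3m carried CCGGAAG from 55 to 49 bases before the start, Eif3l its reverse complement from 35 to 29 and Eif3d from 70 to 64 bases before it. The motif was also present in Eif3c and thus in 4 of the 8 eIF3 genes with a promoter sequence. It was absent from Eif3b and Eif3k, which were also higher on Wy14643 in wild-type mice (1.55-fold and 1.71-fold). Eif3c, which carries it more than once, had a ratio of 1.23 there on its brightest probe set. A link between the motif and the ratios was not tested. CCGGAAG was found in 7 of the 42 factor genes that matched the RefSeq table (16.7%), against 6.91% of all 32851 promoters of this length. The direct repeat of AGGTCA spaced by 1 base was found in 0 of the 42 factor genes and in 11 of all promoters. AGGTCA alone occurred in Eif2s3x and Eif4enif1 (4.76% of the factor genes, against 14% of all promoters) and in 0 of the 8 eIF3 genes. The CACGTG motif, a palindrome that reads the same on both strands, was present in 8 factor genes (19%, against 6.02% of all promoters), among which were Eif3f and Eif3k. CCAAT was found in 28.6% of the factor genes and 33.8% of all promoters, and TATAAA in 9.52% and 12.4%. The shares of factor genes count genes, and those of all promoters count promoters. Since the 42 genes have 57 listed promoters, these shares are not counted on the same basis. These matches describe letters within the 250 bases only.

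The messenger RNAs of many translation factors and ribosomal proteins are known to start with a C followed by a run of pyrimidines, the terminal oligopyrimidine tract through which mTOR governs their translation. The start regions below, 15 bases on each side of the annotated start (GRCm38.p6), are of genes of eIF3, eIF2 and eEF1. Capitals mark C followed by at least 6 further C or T, anywhere in these bases and not only at the start.
Eif3f, chr7:108934400-108934429, plus strand: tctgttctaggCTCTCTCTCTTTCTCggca
Eif3l, chr15:79075208-79075237, plus strand: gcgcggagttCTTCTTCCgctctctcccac
Eif2s3x, chrX:94212637-94212666, minus strand: ctgccgagcattttCCTTTTCTCTCCgagc
Eef1a1, chr9:78481710-78481739, minus strand: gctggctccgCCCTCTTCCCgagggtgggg
A run of this kind on the strand of the gene was present in 13 of the 57 start regions of factor genes (22.8%), which belonged to 11 of the 42 genes, and in 14.2% of all start regions. Its length was 15 bases in Eif3f, 12 in Eif2s3x, 10 in Eef1a1 and 8 in Eif3l. In each of these printed genes the run began before the annotated start and ran past it. This does not hold for all 13 regions. For example, the run ended before the annotated start in Eif4e and Eef1a2 and began after it in Eif2b2 and Eif2ak4. Whether the messenger RNA starts within the run was not tested.

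The values are GCRMA intensities on a linear scale in arbitrary units, and each gene is represented by the probe set with the highest mean over the 4 arrays. Intensities of different probe sets depend on the probes and are compared here between arrays, not as levels of different genes. Background was set at 14.4, the value below which lay 90% of the readings of 65 probe sets for 44 genes that liver does not express. On all 4 arrays 45 of the 52 factor genes were above it. Eif2ak4, Eif4e3 and Eef1akmt1 were above it on some arrays. Eef1aknmt, Eef2k, Eef2kmt and the Y-linked Eif2s3y, which has a close X-linked copy in Eif2s3x, were above it on none. A gene passed the threshold, in either direction, when its ratio reached 1.5-fold, the only criterion that the study applied to these unreplicated arrays.

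Ppara, the gene disrupted in the PPARα-null mice, gave 847 and 1250.1 on the wild-type arrays (control, Wy14643) and 326 and 428 on the PPARα-null arrays, and where its probes lie relative to the deleted region was not given. For the wild-type Wy14643 array the free-text label duplicates the control's, and its title was followed. Liver was recognisable on all arrays, with 9 of 9 hepatocyte markers above background on average. Of these, Tat (2.93-fold), Pck1 (2.50-fold) and Cps1 (2.12-fold) were lower on Wy14643 in wild-type mice and 0 of the 9 passed in PPARα-null mice. Other marker lists moved with the diet too. Kupffer cell markers were lower on Wy14643 in both genotypes, for 7 of 9 genes in wild-type mice (summed intensity 1067 on control, 423 on Wy14643) and for 8 of 9 in PPARα-null mice (1280.1 and 664). Neutrophil markers were higher on Wy14643 in PPARα-null mice for 4 of 5 genes (57.7 and 250.01), against 0 of 5 in wild-type mice (51.5 and 51.0). Dividing cell markers were higher on Wy14643 for 6 of 10 genes in wild-type mice (788 and 1457) and for 0 of 10 in PPARα-null mice (750 and 869). Only 2 of these 10 genes, Pcna and Mcm6, and 2 of the 5 neutrophil genes, S100a8 and S100a9, had a mean above background. Pcna, at 704 on control and 1310 on Wy14643 in wild-type mice, made up most of the dividing cell sum. Sinusoidal endothelial markers were lower on Wy14643 for 2 of 8 genes in wild-type mice (1584 and 921) and 5 of 8 in PPARα-null mice (1690.2 and 803). Stellate cell markers were lower for 2 of 8 in wild-type mice (1901 and 1120.2) and higher for 2 of 8 in PPARα-null mice (2161 and 2550.5). A mean above background was found for 6 of the 8 sinusoidal and 4 of the 8 stellate genes. In wild-type mice Fcgr2b (828 on control, 365 on Wy14643) was the largest part of the sinusoidal sum, and Dcn (1182 and 585) of the stellate sum. The part of these cell types in the factor gene ratios was not tested, and fewer cells of a type cannot be told apart from less RNA per cell in whole liver.

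In wild-type mice, Wy14643 went with higher signal for a group of initiation factor genes and with a lower signal, by this criterion, for none. Of the 52 factor genes 12 were at least 1.5-fold higher on Wy14643 than on control (23.1%, against 9.38% of all named genes) and 0 were lower (against 10% of all). Of the 47 with a mean above background, 11 were higher (23.4%, against 15.5% of such genes) and 0 were lower (against 17.3%). The median log2 ratio was 0.23 for the factor genes and 0.04 for all genes. The 12 genes were 6 subunits of eIF3, Eif2b2 and Eif2b4 of the exchange factor eIF2B, the eIF2 kinase gene Eif2ak1, Eif4e2 and Eif4g3 of the cap complex, and Eef1akmt1, an eEF1A methyltransferase gene that was below background on 3 arrays. Eif4e2 lay just inside the threshold (1.504-fold) and Eif2d just outside (1.49-fold). With 32 added to every intensity, which damps dim genes, 6 in place of 12 were higher.

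In PPARα-null mice, the same diet went with 1 higher factor gene (Eif2b4) and 1 lower (Eif3m), which is 1.92% each. Among all named genes 1.49% were higher and 2.74% lower in this comparison. The median log2 ratio of the factor genes was -0.03, against 0.04 for all genes. The log2 ratios of all genes had a standard deviation of 0.28 in PPARα-null mice and 0.70 in wild-type mice, so that fewer genes of any kind passed the threshold.

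**Figure D1:**
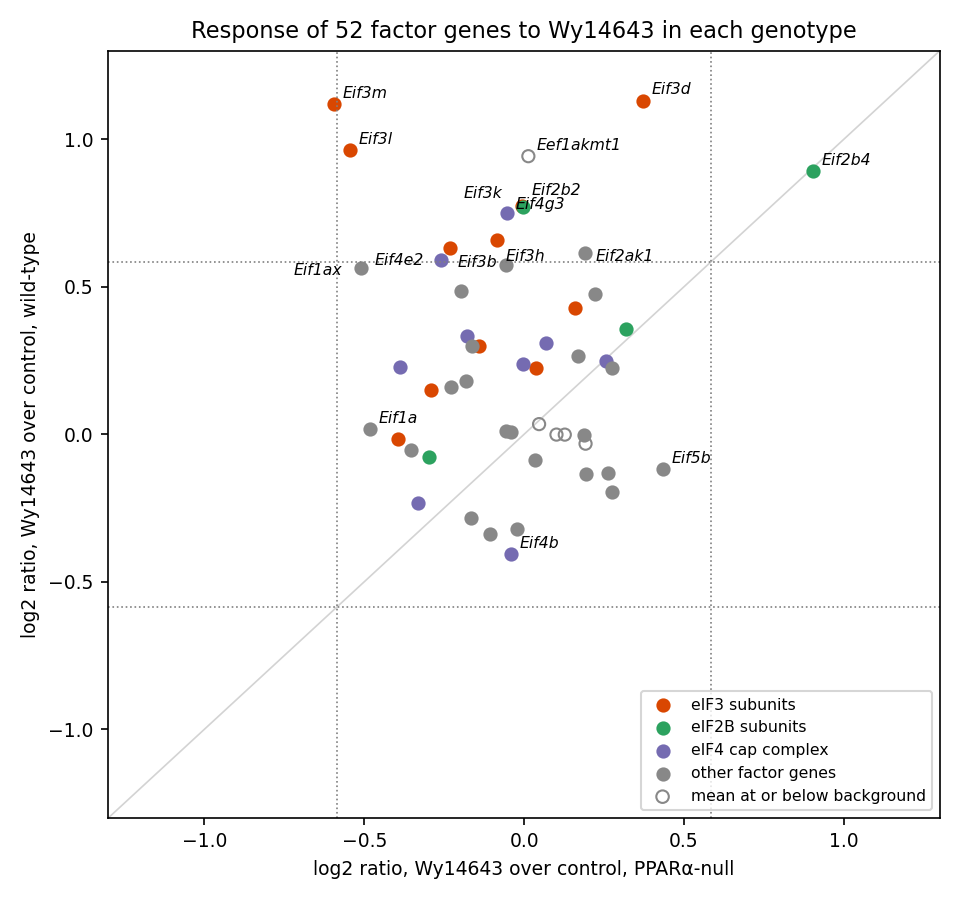
Each point is 1 of the 52 factor genes, placed by its log2 ratio of Wy14643 to control in PPARα-null mice (x axis) and in wild-type mice (y axis), with dotted lines at 1.5-fold, a grey diagonal of equal ratios and open circles for genes with a mean at or below background. Of the genes, 12 lie above the upper dotted line for wild-type mice, and only Eif2b4 also lies past the right one.

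When the response in PPARα-null mice was subtracted from that in wild-type mice, the difference in log2 ratio was above 0 for 35 of the 52 factor genes, with a median of 0.25. It amounted to 1.5-fold or more in 14 of them and to 1.5-fold or more in the opposite direction in 0. Among all 12393 genes it was above 0 for 5958, the median was -0.01, and 1317 and 1307 genes passed in the respective directions. Of the 6887 genes with a mean above background, 3476 were above 0, and 1224 and 1212 passed. Among the factor genes, the difference was largest for Eif3m (1.72), Eif3l (1.51) and Eif1ax (1.07), and most negative for Eif5b (-0.55). With 1 array per group these differences were not tested.

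The comparison of the genotypes on Wy14643 shares the wild-type Wy14643 array with the diet comparison above, so its values are given as its own and not as a second observation. Of the factor genes 12 passed the threshold with the higher value in wild-type mice (23.1%, against 10.4% of all named genes) and 1, Eif5b, was lower (1.92%, against 11.2%). The 12 were 6 subunits of eIF3, with Eif2b2, Eif4e, Eif4e2, Eif4g3, Eif1ax and the dim Eef1akmt1. Among those with a mean above background, 11 were higher (23.4%, against 17.6%) and 1 was lower (2.13%, against 19.3%). On the control diet, 0 factor genes were higher in wild-type mice (against 1.49% of all genes) and 2, Eif1a and Eif2ak3, were lower (3.85%, against 1.51%). The 12 higher genes on Wy14643 became 7 with 32 added to every intensity. They became 8 with each array centred on the median of probe sets above background. The median log2 ratio of the genotypes for the factor genes was 0.14 on Wy14643 and -0.03 on control.

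**Figure D2:**
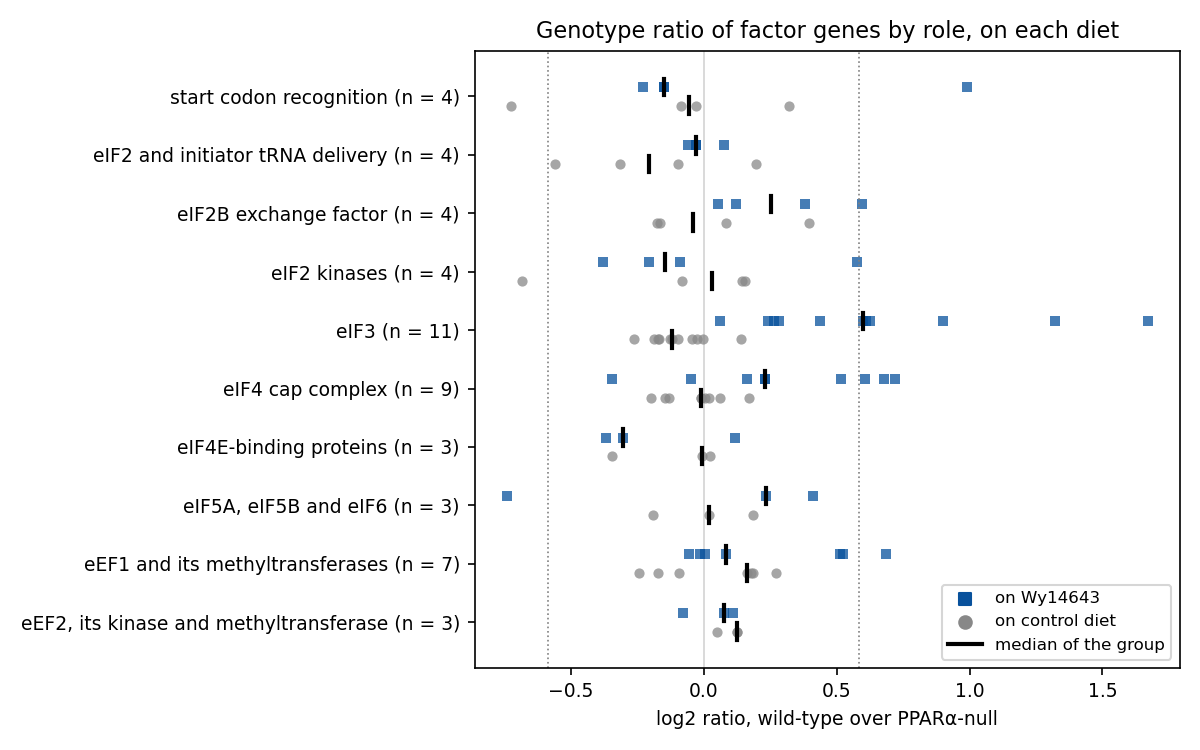
Log2 ratio of the genotypes (wild-type over PPARα-null) for each factor gene, by role (rows, with the number of genes), on Wy14643 (blue squares) and on the control diet (grey circles), with short black lines at the group medians and dotted lines at 1.5-fold. The 11 eIF3 genes have a median of 0.60 on Wy14643 and -0.12 on control.

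The eIF3 subunits formed the largest role group and held 6 of the 12 genes that were higher on Wy14643 in wild-type mice. Their 11 genes all had a mean above background, and Eif3g and Eif3j were not among the 52. Their median log2 ratio of Wy14643 to control was 0.63 in wild-type mice, with 10 of 11 genes above 0. In PPARα-null mice it was -0.14, with 8 of 11 below 0. Among all genes with a mean above background, 15.5% were higher on Wy14643 in wild-type mice. The median log2 ratio of those genes was 0.0012 in wild-type and -0.0042 in PPARα-null mice. All 11 eIF3 genes had a higher value on the wild-type than on the PPARα-null Wy14643 array, by 1.5-fold or more in 6 and by a median log2 ratio of 0.60, whereas 10 of 11 had a lower value in wild-type mice under control feeding, with 0 past the threshold. Among all genes with a mean above background, 17.6% were higher in wild-type mice on Wy14643. The median log2 ratio of the genotypes for those genes was -0.02 on Wy14643 and -0.03 on control. The diet response of wild-type mice exceeded that of PPARα-null mice for each of the 11 eIF3 genes, by a median of 0.74 on the log2 scale. It did so for 3476 of the 6887 genes with a mean above background.

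**Figure D3:**
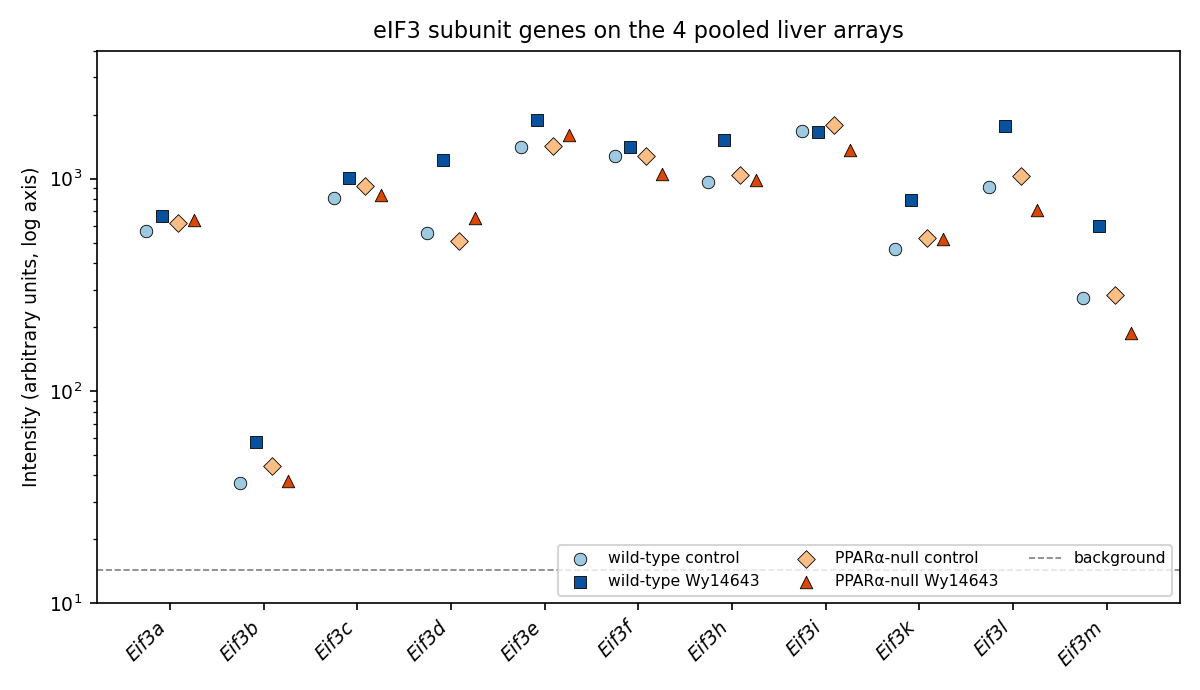
Intensity (log axis, arbitrary units) of the 11 eIF3 subunit genes on the 4 pooled arrays, each symbol being 1 array and the dashed line the background of 14.4. The dark blue square of wild-type Wy14643 is the highest symbol for every gene except Eif3i, and stands furthest from the others for Eif3m, Eif3l and Eif3d.

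Eif3m, a subunit of the eIF3 core, had an intensity of 275 in wild-type control, 598 in wild-type Wy14643, 284 in PPARα-null control and 188 in PPARα-null Wy14643. On Wy14643 it was 2.17-fold higher in wild-type mice, 1.51-fold lower on Wy14643 in PPARα-null mice and differed 3.18-fold between the genotypes on Wy14643, with wild-type above PPARα-null, so the pools fed Wy14643 lay on opposite sides of near-equal controls. The lower value in PPARα-null mice stood just inside the threshold, and it kept its call in 2 of 6 alternative settings.

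Eif3l, which binds its neighbour eIF3k at the edge of the complex, read 909, 1773, 1034 and 709 in the same order of arrays (wild-type on control, then on Wy14643, and PPARα-null likewise), which is used from here on. Wild-type Wy14643 was 1.95-fold above its control and 2.50-fold above PPARα-null Wy14643, which itself was 1.46-fold below its control. The further probe sets of Eif3l were below background on all 4 arrays, and the median over all its probe sets turned the genotype ratio to -0.14 on the log2 scale.

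Eif3d, the subunit that can bind the 5′ cap of certain messenger RNAs itself, read 557, 1221, 506 and 654. In wild-type mice it was 2.19-fold higher on Wy14643 and, at 1.29-fold, within the threshold in PPARα-null mice, so that both genotypes had the higher value on Wy14643. The ratio of the genotypes on Wy14643 was 1.87.

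Eif3k read 465, 794, 523 and 520.5, a ratio of 1.71 for Wy14643 in wild-type mice with a near-equal pair in PPARα-null mice. Eif3h, a core subunit, read 959, 1514, 1041 and 982, with a ratio of 1.58 in wild-type mice. Eif3b, the scaffold for the peripheral subunits, had 37.1, 57.4, 44.5 and 37.9, with a ratio of 1.55. In all 3 genes the wild-type Wy14643 array stood above the other 3. The genotype ratio on Wy14643 was between 1.52 and 1.54 for these genes, just past the threshold.

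The remaining measured eIF3 subunits did not pass the threshold in any comparison on their brightest probe sets. Eif3i, whose probe set has the highest mean of the group, read 1678, 1660.3, 1796 and 1365, Eif3e 1403, 1889, 1429 and 1596, and Eif3f 1277, 1416, 1281 and 1046. Eif3a, the largest subunit, read 568, 664, 621 and 637, and Eif3c 814, 1002, 918 and 833. Further probe sets for Eif3c and Eif3e passed the threshold where the brightest did not, as described below.

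Among the genes that set the supply of initiator tRNA, those measured for eIF2 itself lay between the thresholds on their brightest probe sets. Part of its exchange factor did not. Eif2s1 of eIF2 and Eif2b3 of eIF2B were not among the 52 genes. Eif2s2, the gene for the beta subunit of eIF2, read 1817, 1832, 1941 and 1868, the 4 arrays within 1.07-fold of each other. The gamma subunit gene Eif2s3x was 1.39-fold higher in wild-type mice fed Wy14643, and Eif2d, whose product can bring tRNA to the ribosome without eIF2, 1.49-fold. The contrast between eIF2 and its exchange factor depended on the probe set. A further probe set of Eif2s2 had ratios of 1.59 for Wy14643 in wild-type mice and 1.59 for the genotypes on Wy14643. For Eif2s3x, a further probe set had a genotype ratio of 1.74 on Wy14643, the wild-type array being the higher. The other probe sets of both genes lay between the thresholds in these comparisons.

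Of the eIF2B genes, Eif2b2 (beta subunit) read 43.3, 73.8, 49.0 and 48.8, with wild-type Wy14643 1.70-fold above its control. Eif2b4 (delta subunit) read 61.0, 113, 46.4 and 86.8. It was higher on Wy14643 by 1.85-fold in wild-type and 1.87-fold in PPARα-null mice, the only factor gene higher by the threshold in both genotypes. Eif2b5, which encodes the catalytic subunit, and Eif2b1 did not pass in any comparison. The ratio of Eif2b2 was lost in 3 of 7 alternatives, and its further probe sets had ratios of 1.26 and 1.11 in wild-type mice.

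The kinases of eIF2 each sense another stress. Eif2ak1, which encodes the heme-regulated kinase, read 70.7, 108, 63.5 and 72.5, a ratio of 1.53 for Wy14643 in wild-type mice. Eif2ak3, which encodes the endoplasmic reticulum kinase PERK, read 56.0, 54.0, 89.7 and 70.2. It was 1.60-fold lower in wild-type mice on control, and its other ratios stayed within the threshold. Eif2ak2 (the double-stranded RNA kinase PKR) and Eif2ak4 (the amino acid sensor GCN2), the latter at 13.5 to 15.5 and hence around background, did not pass in any comparison.

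Among the genes of start codon recognition, Eif5, which encodes the GTPase activator of eIF2, read 2057, 1795, 1646 and 1993 and stayed between the thresholds. Eif1ax, the X-linked gene for eIF1A, had 337, 498, 357 and 251, a ratio of 1.48 in wild-type mice, just below the threshold, and of 1.99 between the genotypes on Wy14643. Its relative Eif1a read 264, 267, 435 and 312 and was 1.65-fold lower in wild-type mice on control. The pair encode near-identical proteins, and whether their probe sets share signal was not tested. Of the further probe sets, that of Eif1ax read 76.8, 68.5, 96.3 and 72.8, with the highest value in PPARα-null control.

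In the cap complex, the genes with ratios past the threshold were Eif4e2, Eif4g3 and Eif4e. Eif4g1 was not among the 52 genes. Eif4e2, whose product 4EHP binds the cap without eIF4G, read 194, 292, 212 and 177, with ratios of 1.504 for Wy14643 in wild-type mice and 1.65 between the genotypes on Wy14643. Eif4g3, the gene for a second eIF4G scaffold, read 23.7, 39.9, 27.2 and 26.2, with ratios of 1.68 and 1.52. Eif4e, the gene for the cap-binding protein, had 287, 336, 275 and 210.3. It passed between the genotypes on Wy14643 only (1.60-fold), where the wild-type array was the highest of the 4 and the PPARα-null array the lowest.

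The helicase genes Eif4a1 and Eif4a2 had ratios of 1.26 and 1.19 for Wy14643 in wild-type mice. Eif4h, which encodes a cofactor of that helicase, read 2701, 3344, 2717 and 2849. Eif4b, the gene of the other cofactor, was 1.32-fold lower on Wy14643 in wild-type mice, the lowest ratio of the 52 genes in that comparison. Neither cofactor gene passed the threshold on its brightest probe set. Of the eIF4E-binding proteins, which compete with eIF4G, Eif4ebp2 had 974, 780.1, 979 and 963, with the lowest value in wild-type Wy14643 at 1.25-fold below control, and Eif4ebp1 and Eif4enif1 also stayed between the thresholds.

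Eif5b, whose product joins the ribosomal subunits, was the 1 factor gene lower in wild-type mice on Wy14643. Its intensities were 113, 104, 129 and 174, a genotype ratio of 1.67 on Wy14643, and PPARα-null Wy14643 was the highest array. Eif5a, whose product carries the amino acid hypusine and helps ribosomes past stalling sequences, read 9747, 10900.1, 9607 and 8199.9. Eif6, which encodes the factor that keeps the large subunit apart, read 395, 397, 347 and 337.

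The measured elongation factors of the cytosol stayed between the thresholds in all 4 comparisons. Eef1a1, the gene of the tRNA carrier eEF1A, read 10074, 10046, 8899 and 10129.7, and Eef2 read 5509.9, 6437, 5045 and 6098.5. Eef1b2, the gene for an exchange factor of eEF1A, read 3156, 4424, 3557 and 3104, a ratio of 1.40 in wild-type mice. Among the 10 genes named Eef1 or Eef2, only the dim Eef1akmt1 was counted. It read 10.5, 20.2, 12.5 and 12.6, and since just 1 array was above background, wild-type Wy14643 was at least 1.40-fold above each of the others, which is under the threshold.

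The 118 probe sets of the 52 genes also allow a look at genes with several. Of the 12 genes higher on Wy14643 in wild-type mice, 3 had further probe sets above background, 4 in number. All 4 had the same direction, but 1, for Eif4e2, passed the threshold. The genes not counted as changed had 39 further probe sets above background, of which 8 were at least 1.5-fold higher and 2 lower. Among named genes with a mean above background, 15.5% were higher and 17.3% lower in this comparison. Shares over all probe sets were not counted. Between the genotypes on Wy14643, the genes past the threshold had 7 further probe sets above background. Of these, 5 had the same direction, 1 of them past the threshold (Eif4e2), and 2, for Eif1ax and Eif5b, had the opposite sign with log2 ratios of -0.09 and 0.0011. The other genes had 36, of which 9 were higher and 3 lower, against 17.6% and 19.3% of named genes with a mean above background.

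The 8 higher ones for Wy14643 in wild-type mice belonged to Eif3c (2.11-fold and 1.94-fold on 2 probe sets), Eif3e (1.90-fold), Eif4a1 (2.12-fold), Eif2d (2.13-fold), Eif4ebp1 (2.06-fold), Eif1a (1.83-fold) and Eif2s2 (1.59-fold). The further probe set of Eif4a1 read 600.04, 1271, 614 and 508, and that of Eif3e 853, 1624, 1059.9 and 1019, so that wild-type Wy14643 stood apart from the other 3 arrays in both. The 2 lower ones belonged to Eif4b (1.62-fold) and Eif4ebp2 (2.98-fold). The latter read 66.1, 22.2, 47.9 and 69.8, with the lowest value again in wild-type Wy14643. Whether the probe sets of a gene measure different transcripts was not tested, and probe sets of related genes such as Eif4a1 and Eif4a2, or Eef1a1 and Eef1a2, may share signal.

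**Figure D4:**
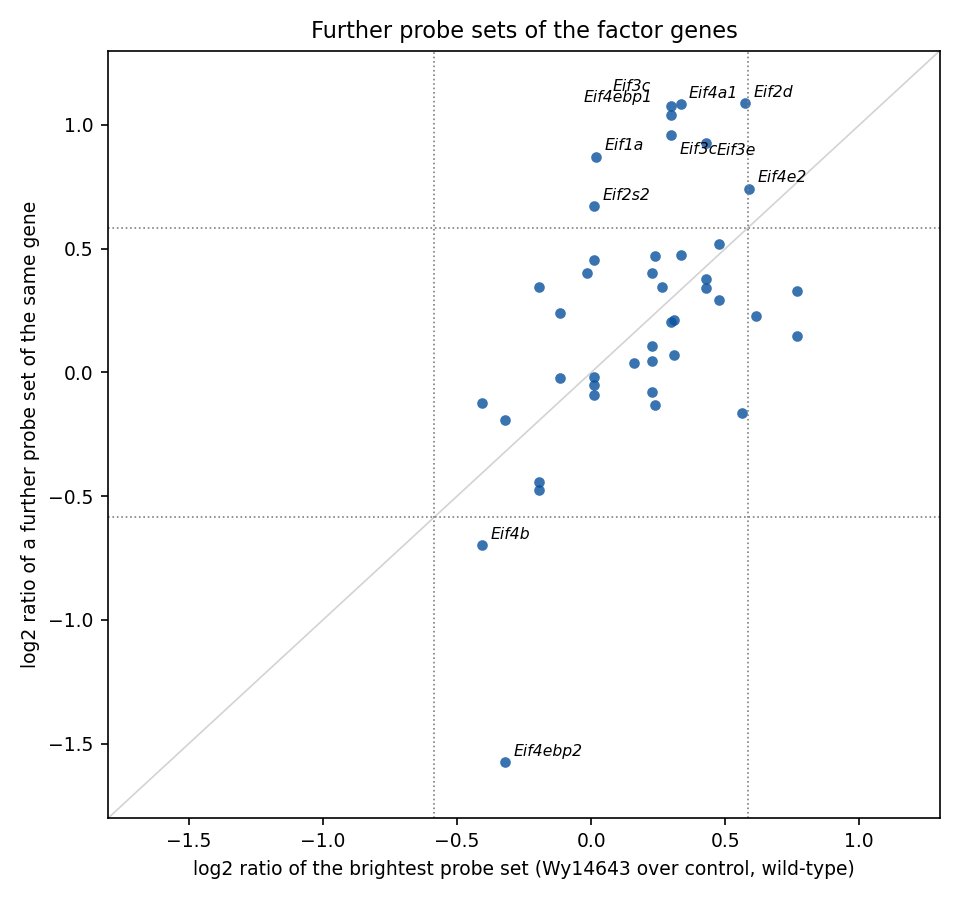
Log2 ratio of Wy14643 to control in wild-type mice for the 43 further probe sets above background (y axis) against that of the brightest probe set of the same gene (x axis), with dotted lines at 1.5-fold and a grey diagonal of equal ratios. Further probe sets for Eif3c, Eif3e, Eif4a1, Eif4ebp1 and Eif2d lie near a log2 ratio of 1, and 1 for Eif4ebp2 lies at -1.57.

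Other genes of protein synthesis were read from fixed lists, of which the genes measured here are counted. The shares of all named genes set beside them are 9.38% higher and 10% lower for Wy14643 in wild-type mice (15.5% and 17.3% among genes with a mean above background), and 1.49% and 2.74% in PPARα-null mice. For the ratio of the genotypes they are 10.4% and 11.2% on Wy14643 (17.6% and 19.3%) and 1.49% and 1.51% on control. Of 20 measured genes for cytosolic aminoacyl-tRNA synthetases and their partners, which load amino acids onto tRNA, 8 were higher on Wy14643 in wild-type mice, against 9.38% of all genes (Lars 2.203-fold, Cars 2.00-fold, Iars 1.74-fold, Aimp2 1.67-fold, Gars 1.63-fold, Nars and Sars 1.57-fold each, Rars 1.57-fold) and 1 was lower (Eprs, 1.71-fold). Their median log2 ratio was 0.34, against 0.04 for all genes. In PPARα-null mice 0 were higher and 1, Tars, was lower. The genotype comparison on Wy14643 had 8 higher and 1 lower, and that on control 0 of either.

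Of 5 genes measured among 9 listed mitochondrial translation factors, Tufm (the mitochondrial EF-Tu) was 2.03-fold and Gfm2 (the recycling factor EF-G2) 1.70-fold higher in wild-type mice fed Wy14643. Gfm1 was 1.52-fold lower on Wy14643 in PPARα-null mice. Between the genotypes on Wy14643, 4 of 5 were higher in wild-type mice, among which Gfm2 at 2.96-fold, and on control 0 passed.

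Of 16 listed partners of the cap complex and of the poly(A) tail, 13 were measured. The 2 higher and 2 lower genes among them for Wy14643 in wild-type mice are near the shares of genes above background, 15.5% and 17.3%. Among them, the poly(A)-binding protein genes Pabpc4 (2.26-fold) and Pabpc1 (1.81-fold) were higher in wild-type mice fed Wy14643. The RNA helicase gene Ddx3x (2.79-fold) and Pdcd4 (1.87-fold), which encodes an inhibitor of eIF4A, were lower. Ddx3x read 3742, 1341, 3973 and 3992, so that wild-type Wy14643 stood far below the other arrays. In PPARα-null mice 0 of the 13 passed, and between the genotypes on Wy14643 1 was higher (Pabpc4, 1.89-fold) and 1 lower (Ddx3x, 2.98-fold).

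Of 17 listed genes of the mTORC1 pathway, 13 were measured, and their 2 higher and 2 lower genes for Wy14643 in wild-type mice are likewise near those shares. Here Mtor (2.35-fold) and Rraga (2.195-fold) were higher in wild-type mice fed Wy14643, whereas Rragc (2.31-fold) and Tsc1 (1.85-fold), which encodes part of the inhibitor of the pathway, were lower. Mtor, the gene of the kinase, read 161, 379, 122 and 109.5. In PPARα-null mice 0 of the 13 passed. Between the genotypes on Wy14643, Mtor (3.46-fold), Tsc2 (1.71-fold) and Rraga (1.66-fold) were higher in wild-type mice and Tsc1 (2.45-fold) and Rragc (1.66-fold) were lower, and on control only Ddit4l passed, a gene with a mean below background.

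Of 17 genes measured among 18 of eIF2 kinase signalling, Cebpb (1.52-fold) was higher and Atf4 (1.55-fold), the transcription factor whose translation rises when eIF2 is phosphorylated, was lower on Wy14643 in wild-type mice. Asns and Psat1 were also counted as higher, but both were below background on all 4 arrays, and the 3 higher and 1 lower stand against 9.38% and 10% of all genes. In PPARα-null mice Ppp1r15b (1.58-fold), a subunit gene of the eIF2 phosphatase, was higher and Nck1 (1.70-fold) was lower. Between the genotypes on Wy14643, Atf5 (1.84-fold), Chac1 (1.54-fold) and the dim Ddit4 were lower in wild-type mice and 0 were higher. Of 10 genes of termination, recycling and ribosome rescue, Pelo (1.94-fold) and Denr (1.71-fold) were higher in wild-type mice on Wy14643 and 0 were lower. Of 11 genes measured among 15 for the synthesis of diphthamide on eEF2 and hypusine on eIF5A, Srm (1.85-fold) and Odc1 (1.61-fold), both of polyamine synthesis, were higher and 0 were lower. Neither list holds more than these 2 higher genes, against 9.38% of all genes. In PPARα-null mice 0 genes of either list passed. The genotypes on Wy14643 differed in Pelo (1.61-fold higher in wild-type mice), Hbs1l (1.58-fold lower) and Azin1 (1.54-fold lower) of these lists.

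Over the 4 comparisons, 17 of the 52 factor genes passed the threshold at least in 1 and 35 in none, with 29 ratios past it in all. Of those 29, 8 held in every alternative run for them that kept the 1.5-fold threshold. They were 2 ratios each of Eif3d, Eif2b4 and Eif3m, that of Eif3k for Wy14643 in wild-type mice, and that of Eif1a between the genotypes on control. For Eif3m 6 alternatives could be run against 7 for the others, since it has no probe set specific to 1 transcript by its name. For 31 of the 52 genes the wild-type Wy14643 array was the highest of the 4. The same share among all named genes was not counted, so whether 31 is many for this array is not known.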

How the data were processed

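The 4 arrays hold pooled liver RNA of wild-type and PPARα-null mice on control food or Wy14643. The deposited values are intensities that the authors computed with GCRMA (version 2.20 per the submitters' notes), a method that models background from probe sequence, applies quantile normalization and summarises probes. They run from 1.55 to 31270.2 and are linear; whether other arrays were normalized with them is not given in the sources used here. Of 22690 probe sets, 64 controls were left out. GEO's platform annotation gave 20380 probe sets 1 gene symbol, 691 several and 1555 none. Probe sets with several symbols were not named, among them 6 with a factor symbol. The update of symbols through Entrez IDs changed 0.

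Log2 ratios were formed for 4 comparisons, and counts at 1.5-fold and medians were set beside those of all 12393 named genes (6887 with a mean above background). No test was made, since each group has 1 array, and precision is limited by that number. Where 1 array of a ratio was below background, the smallest fold that background allows is given in the text, whereas counts used the ratio as deposited. The text names with all 4 values each factor gene with a mean above background and a ratio past 1.5-fold, and, of each role, the gene whose probe set has the highest mean; other genes were chosen after their values were seen. The factor genes and lists were chosen with earlier results of these data known. Alternatives were 32 added to each intensity, a floor at background, centring, cyclic loess (limma 3.58.1 in R 4.3.3), the median over probe sets, no probe sets that may bind several transcripts, bright genes only, and a 2-fold threshold. Promoters came from RefSeq (GRCm38.p6), with 42 of 52 genes matched. The calculation was tested on simulated data. Python 3.11.15, numpy 2.4.6 and pandas 2.3.3 were used.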

Additional observations from a re-analysis of the deposited data

Results flagged for a closer look

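Eif3m moved in opposite directions in the genotypes, 2.17-fold higher on Wy14643 in wild-type and 1.51-fold lower in PPARα-null mice. The lower value in PPARα-null mice passed the threshold in only 2 of 6 alternative settings. The difference of the log2 ratios was 1.72, and it was not tested, since each group has 1 array.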

How the results depend on the processing

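The median log2 ratio of the factor genes ranged over the alternatives from 0.19 to 0.24 for Wy14643 in wild-type mice and from -0.05 to 0.04 in PPARα-null mice, and from 0.12 to 0.23 between the genotypes on Wy14643 and from -0.05 to 0.04 on control. The counts depended more on the setting. With 32 added, the higher genes numbered 6 for Wy14643 in wild-type mice and 7 between the genotypes on Wy14643, and the lower ones 1 between the genotypes on control and 0 for Wy14643 in PPARα-null mice. Centring, cyclic loess and the removal of probe sets with possible binding to several transcripts (49 genes left) each gave 0 lower genes for Wy14643 in PPARα-null mice. With the median over all probe sets, the lower genes numbered 2 for Wy14643 in wild-type mice, 2 between the genotypes on Wy14643, 1 between them on control and 0 for Wy14643 in PPARα-null mice, Eif3l reversed to -0.14 between the genotypes on Wy14643 and Eif2ak3 to 0.060 on control; further probe sets of both were below background. At 2-fold, 2 genes were higher for Wy14643 in wild-type mice and 2 between the genotypes on Wy14643, and 0 were lower in either or on control, and 0 were higher or lower in PPARα-null mice. Of the 29 ratios past 1.5-fold, 16 held with 32 added, 23 with centring, 28 with cyclic loess, 27 with the floor, 15 with the median and 24 of 26 with that removal. Centring left 8 higher genes between the genotypes on Wy14643 and moved the median of all genes in PPARα-null mice from 0.04 to 0.12. Apart from the stated construction of each setting, the cause was not tested. Low signal over background limits Eif2ak4, Eif4e3, Eef1akmt1 and the 4 genes below background on all arrays. No paired analysis was possible because each group has 1 array.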
